A study of Homo sapiens with 4 samples.

Results

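Sphingolipid synthesis and sphingomyelinase genes were followed on gene expression arrays of cancer cells transfected with the microRNA miR-891b. The set holds 10 genes (SPTLC1, SPTLC2, SPTLC3, KDSR, CERS2, CERS5, CERS6, DEGS1, SMPD1 and SMPD2) of the 43317 gene names on the array. They were chosen by name, and all of their probes were used, which gave 15 probes: 6 genes had 1 probe, 3 had 2 and SPTLC3 had 3. The arrays compared HCT116 colorectal cancer cells and A549 lung cancer cells, each given miR-891b or the negative control RNA NC1 with the reagent Dharmafect1. HCT116 was grown in McCoy's 5A and A549 in DMEM medium, so the lines differed in medium as well. The dose and the time after transfection are not given in the sources used here. The study concerns PSAT1, an enzyme of serine synthesis, and the release of extracellular vesicles.

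There were thus 4 groups, a control and a miR-891b group in each line, and 1 array for each, so no difference between arrays has a replicate check and no p-value is given for one. Differences are miR-891b minus NC1 unless stated. They are called by size, at 2-fold or more (1 on the log2 scale), among probes that the scanner software marks as well above background on both of the arrays compared. A level is the log2 signal relative to the 75th percentile of that array, and levels of different probes cannot be set against each other. The ± beside a difference is the error that the scanner software's model assigns to the spots, which leaves out the spread between cultures. A level is an average over a culture, so a change in the share of cells that carry a transcript and a change in the amount per cell cannot be told apart.

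Sphingolipids are built from serine. Serine palmitoyltransferase joins serine to palmitoyl-CoA, and it is made of SPTLC1 and either SPTLC2 or SPTLC3. KDSR reduces the product, the ceramide synthases CERS2, CERS5 and CERS6 add a fatty acid of a preferred length, and DEGS1 sets the double bond that turns dihydroceramide into ceramide. Sphingomyelinases make ceramide by a second route, from sphingomyelin: SMPD1 is the acid enzyme of lysosomes and SMPD2 is a neutral enzyme. Ceramide made by neutral sphingomyelinase is known for its role in the budding of vesicles inside endosomes, from which exosomes are released.

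The transfected microRNA and probes of SPTLC3 and SMPD1, the genes with the largest differences, are shown because the results turn on them. The mature miR-891b sequence is that of RefSeq (GRCh38.p14, chrX:146001100-146001121, minus strand), with the seed, bases 2 to 8, in capitals.
miR-891b: uGCAACUUaccugagucauuga
SPTLC3 probe 2 (hg19, chr20:13029710-13029769, plus strand): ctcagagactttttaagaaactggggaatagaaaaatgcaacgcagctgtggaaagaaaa
SPTLC3 probe 3 (hg19, chr20:13055000-13055059, plus strand): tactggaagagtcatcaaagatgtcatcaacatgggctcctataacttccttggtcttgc
SMPD1 probe (hg19, chr11:6415436-6415495, plus strand): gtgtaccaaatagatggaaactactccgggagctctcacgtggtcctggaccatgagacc
The probes are 60 bases long. These SPTLC3 probes start at positions 523 and 750 of the transcript, and the third SPTLC3 probe, called probe 1 since it was the brightest, starts at position 3487 (chr20:13147054-13147113). The reverse complement of the seed, AAGTTGC, was in 0 of the 15 probes and in 229 (0.393%) of all 58201 gene probes. This says only that these letters are not in the probes, since a probe samples a small part of a transcript.

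The probes well above background made up 44.7% to 50.3% of gene probes per array, and no gene spot was saturated. Both arrays of a line shared a slide, so line and slide cannot be told apart. The spread between spots of a repeated probe gave a median SD of a log2 difference of 0.061 in HCT116 and 0.071 in A549. Each of the 15 probes was a single spot, and the 12 that are not of SPTLC3 read well above background on every array. The error model gave 0.20 to 0.24 for a difference. All 6 A549 markers were higher in A549 and all 5 HCT116 markers were higher in HCT116, with NC1 and with miR-891b. CDH1 separated the lines least, with levels of 3.25 in HCT116 and 3.01 in A549 with NC1, and of 2.46 and 2.23 with miR-891b. The A549 marker AKR1B10 had HCT116 levels of -2.29 with NC1 and 2.18 with miR-891b, against 9.88 and 9.69 in A549. Of 7 fibroblast markers, looked at because the labels mention fibroblast lines, COL1A2, COL3A1 and DCN were not well above background on any array, 2 markers were well above it on each HCT116 array and 4 on each A549 array. The summed fibroblast marker signal is given in units of the array's 75th percentile, NC1 before miR-891b. It was 2.64 and 2.19 in HCT116 and 4.26 and 10.5 in A549. Of the 4 markers well above background in A549, LUM alone was higher with miR-891b, with levels of 1.03 and 3.17. COL1A1 had A549 levels of 0.60 and 0.01, PDGFRB -1.85 and -1.89, and THY1 -1.47 and -2.51. The part of these markers in the results was not tested. PSAT1 differed by -0.81 ± 0.20 in HCT116 and by -1.58 ± 0.20 in A549.

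Among the subunits of serine palmitoyltransferase, SPTLC3 had the largest difference, and it was measurable only in A549. SPTLC3 probe 1 had an A549 level of 0.53 with NC1 and 2.56 with miR-891b, a 4.08-fold higher signal (2.03 ± 0.20). The other two probes gave the same direction in A549. Probe 2 went from -1.12 to 0.37, a difference of 1.49 ± 0.21, and probe 3 from -1.34 to 0.02, a difference of 1.36 ± 0.21. All 3 probes were past 2-fold. In HCT116 none of the 3 probes was well above background on either array, with processed signals of 1.05 to 1.45 intensity units against 29.5 to 438 in A549, so no difference within HCT116 is given. Only 0.501% of the 21337 genes measured in A549 had a higher difference than SPTLC3.

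SPTLC1, the subunit shared by every form of the enzyme, and SPTLC2, its usual partner, stayed close to their control levels. SPTLC1 had levels of 3.27 with NC1 and 3.38 with miR-891b in HCT116, and of 3.12 and 3.14 in A549. The differences were 0.10 ± 0.20 and 0.03 ± 0.20. SPTLC2 (chr14:77973992-77974051, hg19) had levels of 0.37 and 0.34 in HCT116 and of 0.08 and 0.04 in A549, with differences of -0.04 ± 0.21 and -0.05 ± 0.21. These differences were smaller than the spot error, and the signs of those of SPTLC2 depend on the scaling. A second SPTLC1 probe (chr9:94841744-94841803), designed on another transcript variant of the gene, read otherwise in A549. It had levels of -1.65 with NC1 and -2.27 with miR-891b there, a difference of -0.63 ± 0.24, against 0.02 ± 0.22 in HCT116. On the HCT116 miR-891b array this second probe lay in an area of stray signal, that is, 19.3% of the spots around it that were otherwise dim read well above background.

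**Figure D1:**
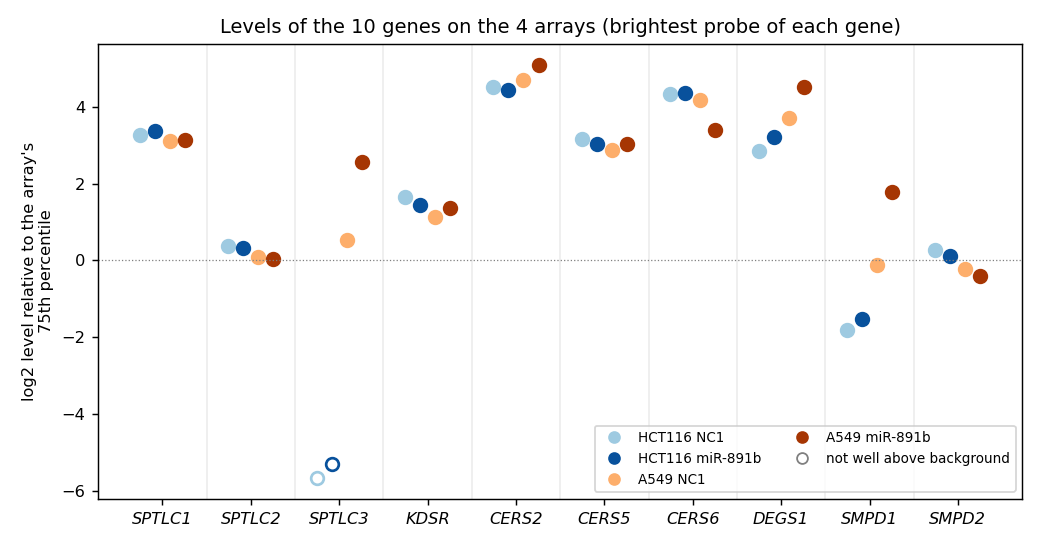
Level of each gene on the 4 arrays (log2 signal relative to the array's 75th percentile, brightest probe, 1 array per point); open circles mark signals not well above background. SPTLC3 and SMPD1 have their highest point on the A549 miR-891b array, at 2.56 and 1.77, while SPTLC1 and SPTLC2 stay within a narrow range; heights of different genes cannot be compared.

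Of the enzymes before and after the ceramide synthases, DEGS1 had the larger differences. DEGS1, the desaturase that makes ceramide from dihydroceramide, was higher with miR-891b in both lines. Its levels were 2.83 and 3.20 in HCT116 and 3.72 and 4.51 in A549, NC1 before miR-891b. The differences were 0.36 ± 0.20 in HCT116 and 0.79 ± 0.20 in A549, both under 2-fold, and 10.01% and 6.60% of measured genes were higher. KDSR, the reductase that follows serine palmitoyltransferase, was measured by a pair of probes that went different ways in A549. KDSR probe 1 (chr18:60998874-60998933, hg19) had levels of 1.65 and 1.44 in HCT116 and of 1.12 and 1.36 in A549, with differences of -0.21 ± 0.20 and 0.24 ± 0.20. KDSR probe 2 (chr18:60995091-60995150) gave -0.20 ± 0.21 and -0.06 ± 0.21. The A549 difference of KDSR therefore has no settled sign. On the HCT116 miR-891b array 10.8% of the otherwise dim spots around probe 1 carried stray signal.

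Among the ceramide synthases of the set, CERS6 had the largest difference, in A549. CERS6, which prefers palmitoyl-CoA and makes C16 ceramides, was lower with miR-891b by both of its probes. Its brighter probe (chr2:169631003-169631062) had levels of 4.18 with NC1 and 3.39 with miR-891b, a difference of -0.80 ± 0.20. The other CERS6 probe went from 1.70 to 0.96, a difference of -0.74 ± 0.20. In HCT116 the same probes gave 0.02 ± 0.20 and -0.10 ± 0.20. CERS2, the synthase of ceramides with very long chains, was instead higher in A549, with levels of 4.70 and 5.09 and a difference of 0.39 ± 0.20. Its HCT116 levels were 4.51 and 4.44, a difference of -0.07 ± 0.20. CERS5, which like CERS6 prefers palmitoyl-CoA, had levels of 3.15 and 3.02 in HCT116 and of 2.87 and 3.02 in A549. Its differences, -0.13 ± 0.20 and 0.15 ± 0.20, were within the spot error. No ceramide synthase of the set reached 2-fold in either line. Both CERS6 probes lay in areas of stray signal on an HCT116 array (11.8% and 12.9% of nearby dim spots) and not on the A549 arrays, where the highest share at either probe was 6.73%.

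Of the sphingomyelinases, SMPD1 was well above its control level in A549 and SMPD2 stayed near it in both lines. SMPD1, the acid enzyme, had A549 levels of -0.11 with NC1 and 1.77 with miR-891b. In intensity units these were 69.3 and 253, a 3.68-fold higher signal (1.88 ± 0.21), and 0.619% of measured genes were higher. In HCT116 SMPD1 was dim but well above background, with levels of -1.82 and -1.52 and a difference of 0.30 ± 0.24. The HCT116 value was 0.09 after normexp background correction with quantile normalization. SMPD2, the neutral enzyme (chr6:109764264-109764508, a span of 245 bases, longer than the probe, which crosses a splice junction), had levels of 0.27 and 0.11 in HCT116 and of -0.23 and -0.41 in A549. The differences were -0.16 ± 0.21 and -0.17 ± 0.21, within the spot error. The response of SMPD1 was larger in A549 than in HCT116 by 1.58, and that gap was not tested.

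**Figure D2:**
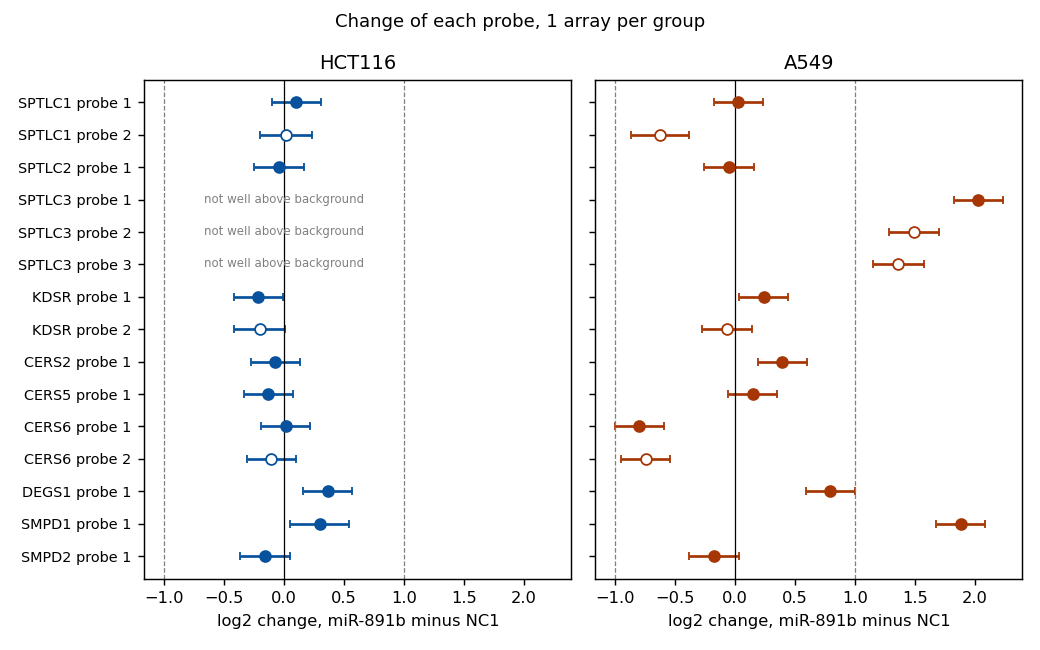
Difference between the miR-891b and NC1 arrays for each of the 15 probes in HCT116 (left) and A549 (right), on the log2 scale; filled circles are the brightest probe of a gene, bars are the scanner software's spot error and dashed lines mark 2-fold. The 3 SPTLC3 probes and the SMPD1 probe lie past 2-fold in A549, from 1.36 to 2.03, and no probe does in HCT116.

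In HCT116, 0 of the 9 members measured were past 2-fold, where 2% of 19105 measured genes were, in either direction. At 1.5-fold 0 of 9 were past it, against 9.56% of genes. In A549, 2 of 10 members, SPTLC3 and SMPD1, were at least 2-fold higher, against 4.01% of 21337 genes. None of the 10 was at least 2-fold lower there, against 5.57% of genes. At 1.5-fold, DEGS1 joined the higher members, making 3 against 11.1% of genes, and CERS6 was the 1 lower member, against 15.3%. The median difference of the members was -0.04 in HCT116 and 0.19 in A549, where the medians over all measured genes were -0.04 and -0.06. In A549, 7 of the 10 members were above 0, against 44.4% of genes, and in HCT116 4 of 9 were, against 44.5%. The 7 include SPTLC1 and KDSR, whose probes had opposite signs in A549, and CERS5, which was within the spot error. With the mean over probes the A549 count was 6 of 10, against 44.2% of genes. With the 75th percentile over probes well above background on all arrays it was 8 of 10, against 53.9%.

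A limma model over all 4 arrays treated the lines as repeats of the transfection, fitted a term for the line and had 1 residual degree of freedom. Of the 10 members 0 had a Benjamini-Hochberg adjusted p under 0.05, as was so for 0 (0%) of 22711 genes, and at an unadjusted p under 0.05 there were 0 members against 5.35% of genes. SPTLC3 entered the fit through its A549 arrays, with HCT116 signals at background. Its fitted value is therefore not given, and the fit is no test of that gene. Of the 9 members measured in both lines, SMPD1 and DEGS1 had the lowest p in limma, each with an adjusted p of 0.793, and fitted changes of 1.09 ± 0.45 and 0.58 ± 0.25 (SE). By brightest probes, 3 of these 9 (SPTLC1, DEGS1 and SMPD1) were above 0 in both lines, against 21.1% of 18063 genes, and 2 (SPTLC2 and SMPD2) were below 0 in both, against 33.8%. SPTLC2 lost or turned its shared sign under some scalings, and SPTLC1 did so with the mean over its probes. A miss in a design of this size does not show that the members did not change.

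On the control arrays, SPTLC3 and SMPD1 already separated the lines. SPTLC3 was higher in A549 NC1 than in HCT116 NC1. The approximate lower limit was 16.9-fold by probe 1, 5.38-fold by probe 2 and 4.61-fold by probe 3. The limit takes the dimmest signal still marked as well above background on the HCT116 array. It is not strict, since some probes brighter than that signal were not so marked. On the miR-891b arrays the approximate limits were 51.8-fold, 11.4-fold and 8.90-fold. SMPD1 was 3.27-fold higher in A549 than in HCT116 with NC1, a log2 difference of 1.71, and 9.78-fold higher with miR-891b. Under normexp with quantile normalization the control difference of SMPD1 was 0.67, which is under 2-fold. By brightest probes DEGS1 followed in size, at 1.84-fold higher in A549 with NC1 and 2.48-fold with miR-891b. Of 9 members measured on both NC1 arrays, 1 was at least 2-fold higher in A549, against 11.1% of genes, and 0 were at least 2-fold higher in HCT116, against 16.2%. The other A549 minus HCT116 differences of the brightest probes ran from -0.53 (KDSR) to 0.19 (CERS2). For CERS6 the probes differed, at -0.15 for the brighter and -0.88 for the other, and for KDSR they had opposite signs (-0.53 and 0.36). The second SPTLC1 probe was 2.24-fold lower in A549 with NC1 (-1.17) and 3.51-fold lower with miR-891b (-1.81). No line difference can be told apart from the slide or the medium.

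The other genes of sphingolipid metabolism were taken from a list of 53 genes, all found on the array, of which 46 were measured in HCT116 and 50 in A549. In HCT116, 1 was at least 2-fold higher and 1 at least 2-fold lower, a share of 4.35% against 2% of all measured genes. In A549, 5 were higher and 1 was lower, where 4.01% and 5.57% of all measured genes were. After normexp with quantile normalization, SGPP2 in HCT116 (-0.35) and CERS4 (0.47) and SGPL1 (-0.86) in A549 were under 2-fold. The median difference of these genes was -0.03 in HCT116 and 0.14 in A549.

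Genes of lysosomal sphingolipid breakdown, the compartment in which SMPD1 works, lay on the higher side in A549 in every case measured: 11 of 11 were above 0, against 44.4% of all measured genes, with a median of 0.68. Of these 3 were at least 2-fold higher, against 4.01% of genes, a count that was 2 with the mean over probes and 4 under the other normalizations and scalings. The count above 0 was 11 of 11 in 7 of the 8 alternative settings and 9 of 9 without probes in areas of stray signal. The share of all measured genes above 0 ran from 44.0% to 53.9% in these settings. NEU1, a lysosomal sialidase, had A549 levels of 3.78 with NC1 and 5.10 with miR-891b, a difference of 1.31 ± 0.20. GLB1, the lysosomal beta-galactosidase, had levels of 4.11 and 5.24, a difference of 1.13 ± 0.20. GALC, which removes galactose from galactosylceramide, was the third, but its probes disagreed. The brighter GALC probe gave 1.36 ± 0.20 in A549 and the other gave -0.52 ± 0.21 (0.42 for their mean), and neither was well above background in HCT116. In HCT116 the lysosomal group had 7 of 10 genes above 0, against 44.5% of all measured genes, and a median of 0.09. GLA, the lysosomal alpha-galactosidase, was the gene past 2-fold there, with levels of 4.65 and 5.69 and a difference of 1.05 ± 0.20, against 0.13 ± 0.20 in A549.

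Among the synthesis partners, CERS1 and CERS4, ceramide synthases outside the set, were at least 2-fold higher in A549. CERS1 had levels of -1.57 and -1.61 in HCT116 and of -0.24 and 1.58 in A549, a difference of 1.82 ± 0.21 in A549. CERS1 shares its transcript with GDF1, so its probe may not report the synthase alone. CERS4 had levels of 1.05 and 0.32 in HCT116 and of -2.06 and -0.55 in A549. Its difference was thus -0.73 ± 0.21 in HCT116 and 1.51 ± 0.23 in A549, although the A549 value was 0.47 under normexp with quantile normalization. The rest of that group, which includes the small subunits of serine palmitoyltransferase and the ORMDL proteins that restrain it, had no gene past 2-fold. All 9 synthesis partners measured in HCT116 were below 0, with a median of -0.14, where 44.5% of all measured genes were above 0. Apart from CERS4 they lay between -0.22 and -0.01. Under the other normalizations and scalings 7 or 8 of 9 were below 0, with 46.0% to 52.0% of genes above 0. In A549 5 of 10 were below 0, where 44.4% of genes were above 0. Enzymes that carry ceramide on to sphingomyelin and glycolipids had 0 of 10 genes past 2-fold in HCT116, against 2% of all measured genes. In A549 it was 0 of 11, where 4.01% of genes were higher and 5.57% lower. Their differences lay between -0.47 and 0.42.

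**Figure D3:**
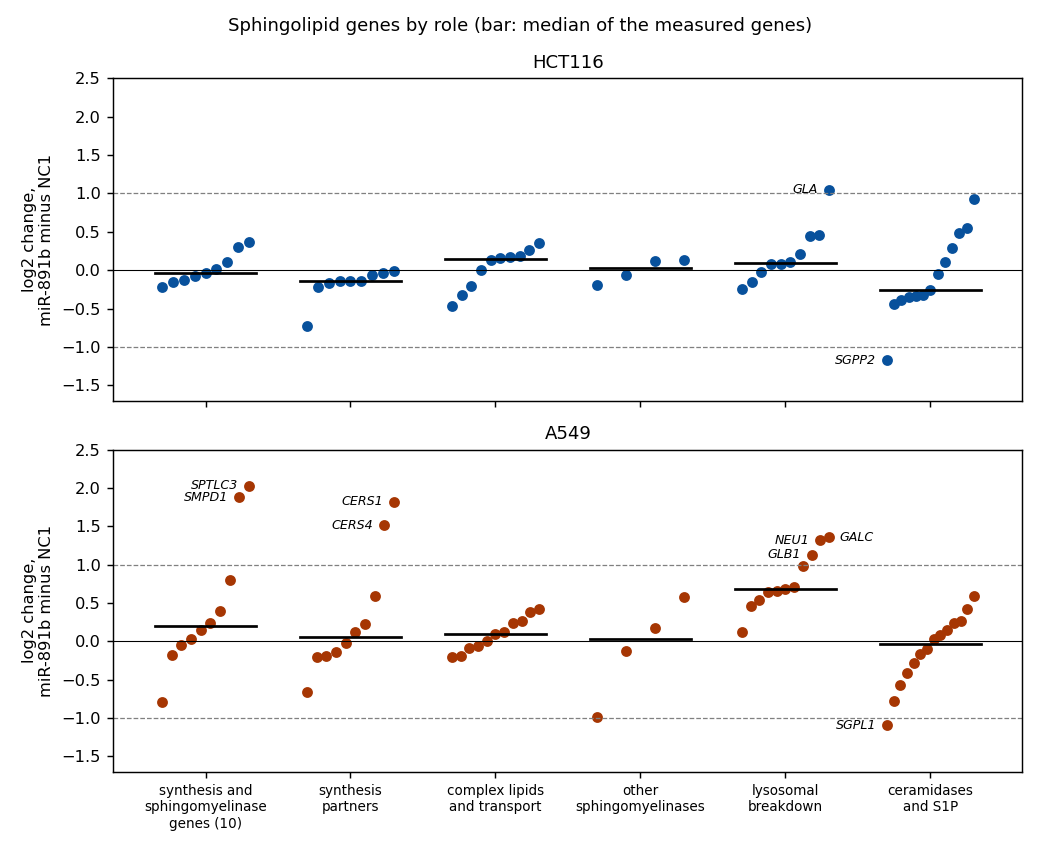
Difference between the miR-891b and NC1 arrays (log2) for the measured sphingolipid genes by role, HCT116 above and A549 below; each point is a gene, bars are group medians and dashed lines mark 2-fold. All 11 lysosomal breakdown genes lie above 0 in A549 (median 0.68), and the genes past 2-fold are named.

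Genes closest to SMPD1 in pattern over the 4 arrays were sought by root mean square distance, with levels centred on each gene's mean. The search took in 12440 genes well above background on all 4 arrays. These had current RefSeq symbols, and names that start with LOC or LINC were left out. The nearest was AQP7P1, a pseudogene of an aquaporin whose close copies may share its signal, at a distance of 0.11. CERS1 was next, at 0.17, and UNKL, a zinc finger gene, followed at 0.18. Over 4 arrays such a match is only a description.

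The upstream sequence of SMPD1 is shown because SMPD1 was the member with the largest difference that had an entry in the promoter table. RefSeq promoter windows (GRCh38.p14) were matched for 8 members, without SPTLC3 and CERS2. Members were counted by gene, while the background percentages are shares of promoter windows. A gene with several windows has more chances of a match, so member counts cannot be set directly against those percentages. In the 250 bases before the start site, the GC box GGGCGG, on either strand, was in 8 of 8 members and in 42.6% of 35116 promoters. CCAAT was in 2 of 8 (CERS6 and SPTLC2) and in 32.01% of promoters, the E-box CACGTG in 0 of 8 and 6.34%, and TATAAA in 0 of 8 and 10.7%. The SMPD1 window (chr11:6390224-6390473, plus strand) held 6 GC boxes, given in capitals.
SMPD1 upstream: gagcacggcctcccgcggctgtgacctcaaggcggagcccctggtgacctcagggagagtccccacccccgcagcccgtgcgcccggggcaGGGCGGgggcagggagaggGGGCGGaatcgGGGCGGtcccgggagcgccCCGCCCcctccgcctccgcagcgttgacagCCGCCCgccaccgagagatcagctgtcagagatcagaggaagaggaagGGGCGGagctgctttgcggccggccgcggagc
The GC box was present in members that differed little between the arrays, such as SPTLC2, as well as in SMPD1.

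The A549 differences of the 5 members that moved most were compared across processing settings. SPTLC3 ran from 1.63, with the mean over its probes, to 2.14 and SMPD1 from 1.36 to 1.98, so both stayed past 2-fold in each. DEGS1 ran from 0.79 to 0.98, CERS2 from 0.39 to 0.64 and CERS6 from -0.80 to -0.67, with no value past 2-fold.

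**Figure D4:**
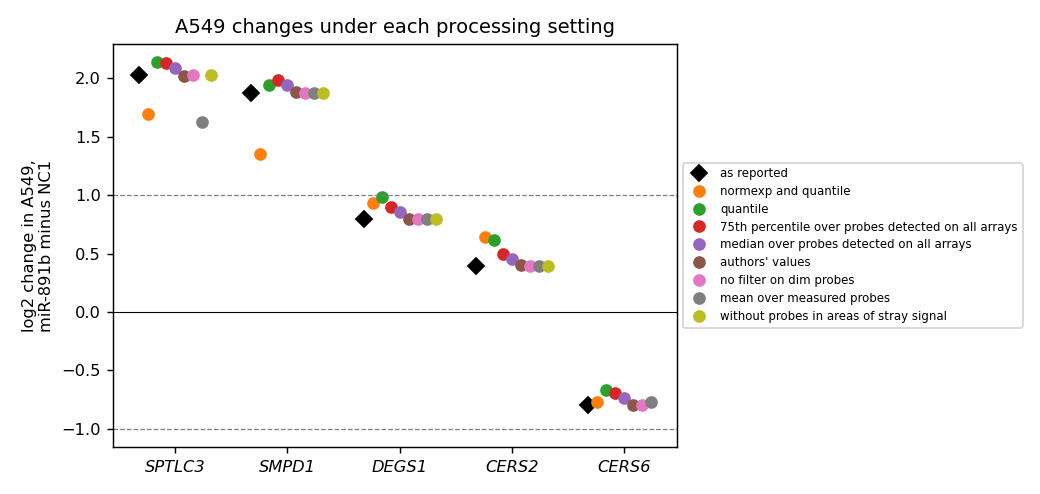
A549 difference between miR-891b and NC1 (log2) for 5 members under the reported setting (black diamond) and each alternative (circles); dashed lines mark 2-fold. SPTLC3 and SMPD1 stay above 2-fold in every setting, at 1.36 or more, and CERS6 has no point without the areas of stray signal because both of its probes lie in one.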

How the data were processed

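Total RNA (100 ng) was labelled with Cy3 and hybridised to 1-colour Agilent arrays (per the labels), and titles gave the groups. Per the file headers and the submitters' processing notes, Agilent Feature Extraction 11.5.1.1 quantified the scans, and the deposited scanner files hold intensity values with background and spatial trends removed within an array. Probe positions are on hg19, per the file headers. How the authors' deposited log2 value table was made is not given in the sources used here. Its values equalled the scanner log2 signal minus the 75th percentile to within a median of 0.0069 per array or less.

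Here, spots marked as outliers were left out, log2 processed signals were averaged per probe, and the 75th percentile over gene probes was subtracted. A gene was represented by its brightest probe over the 4 arrays. The additive model was fitted with lmFit and eBayes of limma 3.58.1 under R 4.3.3 and tested on simulated data. It took genes well above background on at least 2 arrays. Stray signal was called where, within 10 rows and columns, at least 10% of otherwise dim spots read well above background. Python 3.11.15, numpy 2.4.6 and pandas 2.3.3 were used for the rest.

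Named are all members, genes of the pathway list past 2-fold in either line, PSAT1, and the 3 genes nearest in pattern to the member with the largest mean change among those well above background on all 4 arrays. Genes outside this rule (fibroblast markers, AKR1B10, CDH1, SMPD3, SMPDL3A, ACER3, SGPP1, S1PR1 and S1PR4) were named after their values were seen. Members, lists and markers were chosen with earlier results of these data known.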

Additional observations from a re-analysis of the deposited data

Results flagged for a closer look

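KDSR, CERS2 and CERS5 differed in opposite directions in the lines, each by more than the median SD between spots of a repeated probe. The A549 difference exceeded the HCT116 difference by 0.46 for KDSR, 0.47 for CERS2 and 0.28 for CERS5. None of these gaps was tested, since each line has 1 array per group. For KDSR the opposite direction belonged to the brighter probe alone, as the other gave -0.20 in HCT116 and -0.06 in A549. The spot error of each single difference of these brighter probes was 0.20. The CERS2 value in HCT116 (-0.07, and -0.005 after normexp with quantile normalization) and both CERS5 values were within it. The opposite directions of CERS2 and CERS5 are therefore not settled.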

How the results depend on the processing

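In A549, 2 members were past 2-fold in each of the 8 other normalizations, scalings, value sources, filters and probe rules. The share of all measured genes past 2-fold ran from 3.58% (normexp with quantile normalization) to 13.9% (no filter on dim probes). At 3-fold 2 members were past it, against 2.58% of genes, and at 1.5-fold 4 were, against 26.4%. In HCT116 the count was 0 in all 10 alternatives, where the share of genes ran from 0.204% to 9.75%. The A549 median of the members, 0.19, was 0.30 with the 75th percentile taken over probes well above background on all arrays, 0.27 with quantile normalization and 0.12 with the mean over measured probes. The first of these scalings raised all A549 differences by 0.10, and the HCT116 median, -0.04, was 0.02 under it. On the NC1 arrays 1 member was past 2-fold between the lines, against 27.3% of genes. The count was 2 with that scaling (DEGS1 joined SMPD1), against 26.5%. It was 2 with no filter on dim probes (SPTLC3 joined), against 27.3%, and 0 after normexp with quantile normalization, against 13.2%. The limma count was 0 in all 8 alternatives, against 0.0139% of genes with no filter on dim probes and 0% in the others. SPTLC3 entered each of these fits with its HCT116 signals at background, so its p is not given. Among single genes, SGPP2 in HCT116 was -0.35 and SGPL1 in A549 -0.86 after normexp with quantile normalization, and GALC in A549 was 0.42 with the mean over probes. SPTLC2 in A549 changed sign in 3 of 8 alternatives, and SPTLC1 and KDSR there in 1 of 8 each. The cause of these shifts was not tested. The labels carry no replicate numbers, so no block by number was fitted, and the limma model pairs the arrays by line. Dim probes, SMPD1 in HCT116 above all, are limited by signal over background, and SPTLC3 in HCT116 has only an approximate limit.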

Other observations

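Genes that use up ceramide and sphingosine lay on both sides of 0. Of 14 ceramidase and sphingosine-1-phosphate genes measured in A549, 7 were above 0, against 44.4% of all measured genes. Their median difference was -0.04. SGPL1, the lyase that ends the pathway by splitting sphingosine-1-phosphate, was the only gene of these 14 past 2-fold in A549. Its levels were 3.13 with NC1 and 2.03 with miR-891b, a difference of -1.09 ± 0.20. The difference was -0.86 after normexp with quantile normalization and -0.99 with the 75th percentile over detected probes, both under 2-fold. In HCT116 SGPL1 differed by -0.33 ± 0.20. S1PR1, a receptor gene of this group, was not among the 14, since it was well above background on the A549 miR-891b array alone. Its A549 levels were -6.17 with NC1 and -2.91 with miR-891b, so it was higher there by an amount that is not given. SGPP2, a phosphatase of sphingosine-1-phosphate, had HCT116 levels of -0.99 and -2.17, a difference of -1.17 ± 0.27, against 0.24 ± 0.21 in A549. The HCT116 value was -0.35, under 2-fold, after normexp with quantile normalization. A second SGPP2 probe was well above background on the HCT116 miR-891b array alone, at a level of -2.84. ACER3, an alkaline ceramidase, differed by 0.49 in HCT116 and -0.78 in A549, and SGPP1 by 0.56 and 0.42. S1PR4, a receptor for sphingosine-1-phosphate, differed by 0.93 in HCT116 and 0.15 in A549. After normexp with quantile normalization these became 0.13 and -0.25 for ACER3, 0.26 and 0.29 for SGPP1 and 0.32 and 0.04 for S1PR4.

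SMPD3, the neutral sphingomyelinase best known for exosome formation, differed by 0.13 in HCT116 and by -0.99 in A549. Its A549 levels were -2.61 with NC1 and -3.60 with miR-891b. The dimmest level marked as well above background on the A549 miR-891b array was -3.93, so the probe was near the floor there. The A549 difference of SMPD3 was -0.11 after normexp with quantile normalization and just past 2-fold with quantile normalization alone. SMPDL3A, a relative of the acid enzyme, differed by -0.06 and 0.57, and by -0.07 and 0.36 after normexp with quantile normalization.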
